A study of Mus musculus with 12 samples.

Results

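Albumin, transthyretin, vitamin D-binding protein, ceruloplasmin and the parts of inter-alpha-inhibitor are proteins that hepatocytes release into plasma, and their transcripts were followed here in mouse liver. The 9 genes Alb, Ttr, Gc, Ambp, Itih1, Itih2, Itih3, Itih4 and Cp were chosen by symbol from the 16035 genes listed, and all 9 passed the filter on low counts that left 14725. Livers came from wild-type C57BL/6 mice in a study of experimental nonalcoholic steatohepatitis. The groups were HFCF diet for 3 months, normal chow for 3 months, HFCF diet for 1 month and normal chow for 1 month, with 3 biological replicates each and 12 libraries in all. Mice fed for 3 months were 6 months old and mice fed for 1 month were 3 months old. Age and length of feeding therefore cannot be told apart. The labels do not spell out the diet name HFCF.

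Albumin is the most abundant protein of plasma, where it holds colloid osmotic pressure and carries fatty acids. Inter-alpha-inhibitor is put together in the hepatocyte from bikunin, a small proteoglycan that Ambp encodes in 1 precursor with alpha-1-microglobulin, and from heavy chains encoded by Itih1, Itih2 and Itih3 that are bound to the chondroitin sulfate of bikunin. Outside the cell the heavy chains can be passed on to hyaluronan, a sugar polymer of the extracellular matrix. Itih4 encodes a related plasma protein that lacks the site for this bond. Transthyretin (Ttr) carries thyroxine and retinol-binding protein, Gc binds vitamin D and free actin, and ceruloplasmin (Cp) is a copper ferroxidase.

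In mm10 coordinates Itih4 (ENSMUSG00000021922, chromosome 14, 30886476 to 30901981, plus strand), Itih3 (ENSMUSG00000006522, 30908573 to 30923760, minus strand) and Itih1 (ENSMUSG00000006529, 30929180 to 30943289, minus strand) are neighbours. Itih4 and Itih3 are 6591 bases apart and Itih3 and Itih1 5419 bases, and no other tested gene lies between them. Itih2 (ENSMUSG00000037254) is on chromosome 2 from 10094591 to 10131396 on the minus strand, 22174 bases from Itih5. Ambp (ENSMUSG00000028356) is on chromosome 4 from 63143275 to 63154799, minus strand. Alb (ENSMUSG00000029368, 90460889 to 90476603, plus strand) and Gc (ENSMUSG00000035540, 89417524 to 89457765, minus strand) are both on chromosome 5. Cp (ENSMUSG00000003617) is on chromosome 3 from 19957054 to 20009145 on the plus strand and shares 13201 bases with Hps3 on the opposite strand. Which strand the authors counted is not given, so reads of this pair could be counted for either gene and the level of Cp is less certain.

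The promoters of the 4 heavy chain genes are shown because all 4 transcripts were lower in every HFCF liver than in every chow liver at 3 months. Alb, shown as the most abundant transcript, was lower in the same way, and Ambp is shown because it encodes the partner chain. Each is RefSeq sequence of GRCm38.p6, 5′ to 3′ on the gene's own strand, from 250 bases before the start site to 50 bases after it. Itih1 is chr14:30943240-30943539, Itih2 chr2:10130634-10130933, Itih3 chr14:30923538-30923837, Itih4 chr14:30886226-30886525, Ambp chr4:63154123-63154422 and Alb chr5:90460620-90460919. Of the 9 genes 8 had a promoter in the table, and Cp had a pair. Capitals mark matches, on either strand, to short motifs of liver and acute phase factors and of the TATA box.
Itih1: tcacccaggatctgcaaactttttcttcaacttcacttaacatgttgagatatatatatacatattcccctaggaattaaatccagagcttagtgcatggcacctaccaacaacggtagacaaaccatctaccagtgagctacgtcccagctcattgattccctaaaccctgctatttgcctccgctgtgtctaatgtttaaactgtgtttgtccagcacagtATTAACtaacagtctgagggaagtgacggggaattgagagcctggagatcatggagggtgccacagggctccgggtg
Itih2: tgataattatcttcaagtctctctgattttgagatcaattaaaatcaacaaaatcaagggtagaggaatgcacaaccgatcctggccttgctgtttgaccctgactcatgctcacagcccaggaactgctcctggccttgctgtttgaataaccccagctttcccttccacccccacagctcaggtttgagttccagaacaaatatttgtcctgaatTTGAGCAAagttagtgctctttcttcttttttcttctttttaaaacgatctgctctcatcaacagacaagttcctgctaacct
Itih3: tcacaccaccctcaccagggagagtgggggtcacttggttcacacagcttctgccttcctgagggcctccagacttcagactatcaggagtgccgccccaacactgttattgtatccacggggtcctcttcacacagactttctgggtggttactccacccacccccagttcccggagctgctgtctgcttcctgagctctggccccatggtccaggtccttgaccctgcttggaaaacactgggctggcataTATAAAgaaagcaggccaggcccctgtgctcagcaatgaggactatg
Itih4: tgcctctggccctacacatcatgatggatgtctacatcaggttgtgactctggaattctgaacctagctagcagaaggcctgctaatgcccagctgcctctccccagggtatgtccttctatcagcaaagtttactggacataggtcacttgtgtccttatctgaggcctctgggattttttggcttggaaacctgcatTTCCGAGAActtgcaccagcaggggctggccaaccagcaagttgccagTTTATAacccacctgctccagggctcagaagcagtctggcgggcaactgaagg
Ambp: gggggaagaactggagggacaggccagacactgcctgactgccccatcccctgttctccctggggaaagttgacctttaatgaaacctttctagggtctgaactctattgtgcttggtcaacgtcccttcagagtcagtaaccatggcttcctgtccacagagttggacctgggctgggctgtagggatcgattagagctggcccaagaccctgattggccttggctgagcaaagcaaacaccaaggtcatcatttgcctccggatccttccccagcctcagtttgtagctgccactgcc
Alb: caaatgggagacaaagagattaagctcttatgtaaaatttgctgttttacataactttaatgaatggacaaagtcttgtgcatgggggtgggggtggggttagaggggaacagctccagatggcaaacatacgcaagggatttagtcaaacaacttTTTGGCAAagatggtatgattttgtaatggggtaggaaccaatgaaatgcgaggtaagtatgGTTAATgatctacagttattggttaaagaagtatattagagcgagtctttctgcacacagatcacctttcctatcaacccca
Of 32851 promoters of the same length 7.10% held the HNF1 letters, GTTAAT. The C/EBP letters searched were TTGCNNAA, found in 10.8% of all promoters. FOXA was searched as TGTTTAC, which 3.65% held, and HNF4 as CAAAGTCCA, which 0.475% held. STAT was searched as TTCNNNGAA, found in 8.30% of promoters. For the interleukin-6 response element the letters were CTGGGAA, found in 11.1%, and for the TATA box TATAAA, found in 13.6%. HNF1 letters were present in Itih1 at -27 and Alb at -32 from the start site, and C/EBP letters in Itih2 at -33 and Alb at -94. Itih4 had STAT letters at -51 and TATA letters at -3, and Itih3 had TATA letters at 3. No match overlapped another in these 6, and Ambp had none. A match describes the letters alone. No motif searched was shared by all 4 heavy chain genes, and G and C made up 57.0% of the Itih3 promoter and 42.3% of the Itih2 promoter.

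Libraries held 13733485 to 20277572 counts over the listed genes. Values below are CPM, counts brought to a common library total and scaled by the trimmed mean of M-values (TMM). A change is a log2 fold change with its SE, fitted with edgeR to all 12 libraries and tested by quasi-likelihood, with Benjamini-Hochberg adjustment over all 14725 genes and a threshold of 0.05. The replicates are separate samples per the labels. P-values set a difference of group means against the spread between replicates, estimated from all 12 libraries with information shared across genes. In a principal component plot of all genes, HFCF at 3 months replicate 3 (29.3 on the first axis, against 60.7 and 63.8) and chow at 1 month replicate 1 (36.8 on the second axis, against 0.0051 and 6.43) stood apart from their groups. The liver label fitted the 15 hepatocyte markers, which summed to 51833 CPM or more in every library, and no listed marker of the 9 cell types was at 0 in all libraries.

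Albumin took the most counts of any gene in every library, and the 9 genes together took 5.44% to 7.81% of counts. Per length, in the authors' FPKM, the mean over 12 libraries was 23333 for Alb, 3692 for Gc, 3016 for Ttr, 1448 for Ambp, 567 for Itih4, 550 for Itih3, 478 for Itih2, 274 for Itih1 and 185 for Cp. These levels ranked 1, 18, 20, 47, 103, 112, 125, 207 and 302 among all genes. The order of Alb, Gc, Ttr, Ambp and Itih4 held in all 12 libraries, although the ranges of Gc and Ttr overlapped across libraries. Itih4 exceeded Itih3 in 7 of 12 libraries and Itih3 exceeded Itih2 in 8, so the order of these 3 was not the same throughout. Itih3 was the lowest of the 3 in every HFCF liver at 3 months and the highest in every chow liver at 1 month. These orders were not tested. Itih2 exceeded Itih1 in 12 and Itih1 exceeded Cp in 11. The per-length level of Cp rests on a gene model of 9566 bases, against 1219 to 3637 bases for the other 8. Cp was the steadiest of the 9 in CPM, with a highest library 1.21 times the lowest, and Itih3 the most variable at 4.69 times. The ratio was 1.31 for Gc, 1.50 for Ttr, 1.70 for Ambp, 1.73 for Alb, 2.09 for Itih1, 2.99 for Itih2 and 3.17 for Itih4.

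**Figure D1:**
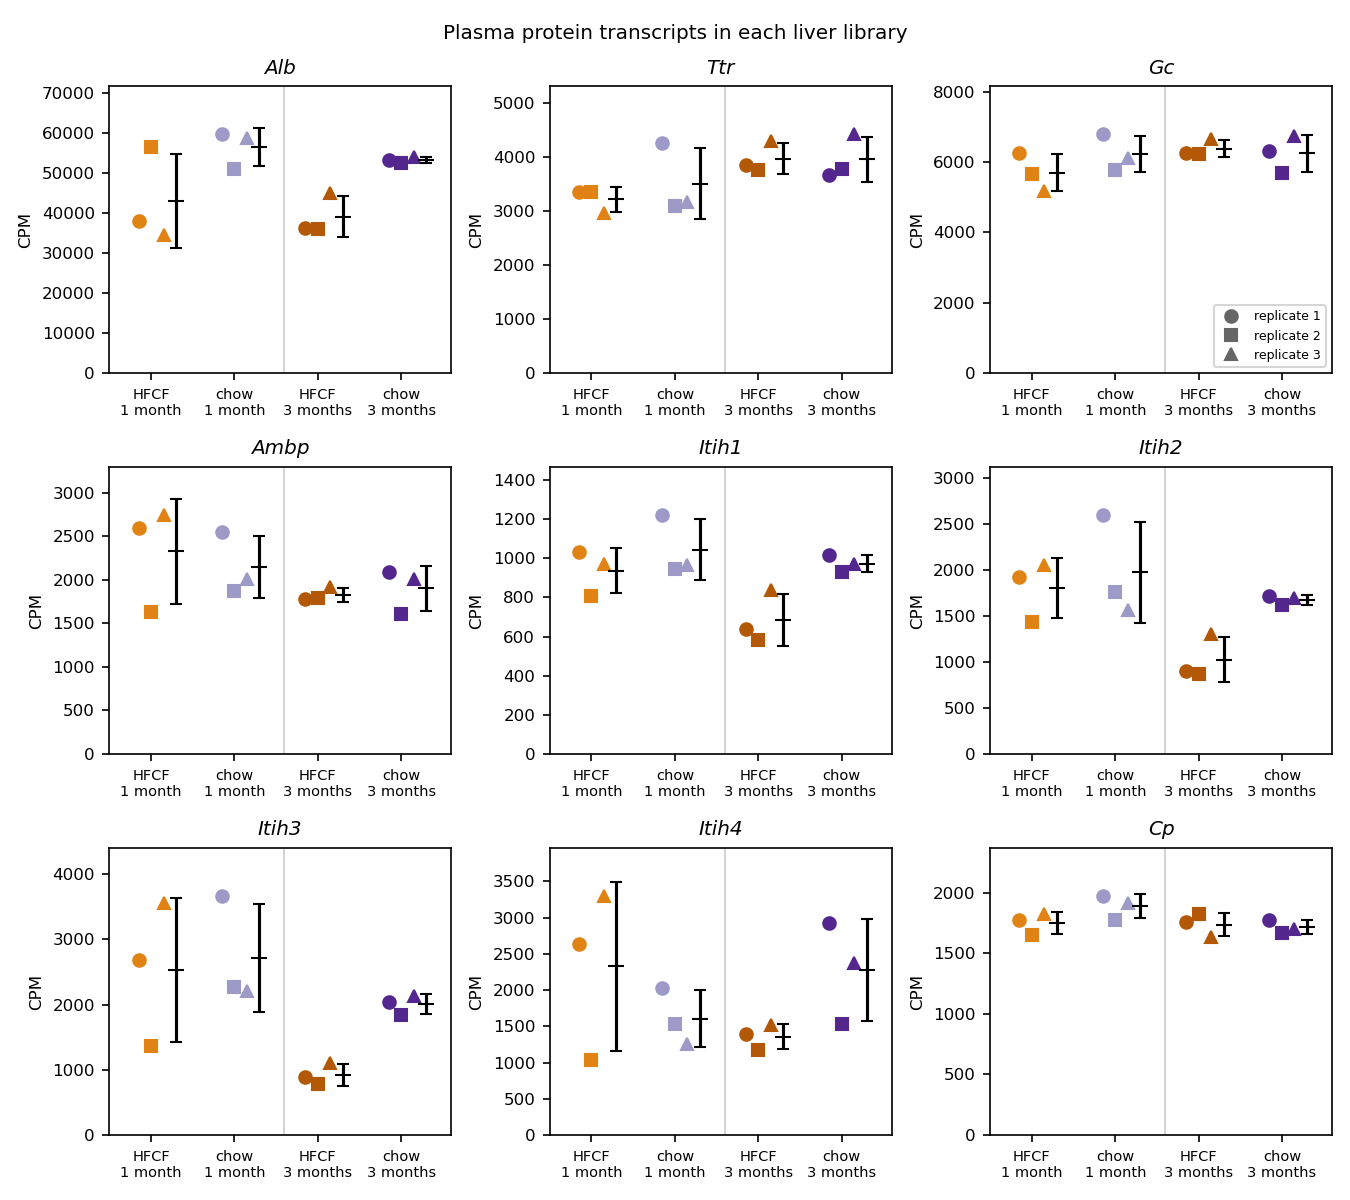
CPM (linear axis from 0) of each gene in each of 12 libraries, with HFCF left of chow at each month; symbols are replicates and black marks are the mean ± SD of 3. Itih1, Itih2, Itih3, Itih4 and Alb were lower in all 3 HFCF livers than in all 3 chow livers at 3 months, and Cp varied least.

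The comparison at 3 months asked which transcripts differed between livers of HFCF-fed and chow-fed mice after the longer feeding. The heavy chain genes of inter-alpha-inhibitor fell: Itih1, Itih2 and Itih3 passed, and no gene of the 9 rose. That is 3 of 9 lower, where 7.50% of all tested genes were called lower and 11.5% higher. Among the 258 genes with a mean of at least 500 CPM, a set that holds all 9 and whose limit was chosen after values were seen, 21.3% were called lower. In 5 of the 9 genes (Alb and Itih1 to Itih4) every HFCF library lay under every chow library, and 17.5% of all tested genes showed this. The median change of the 9 was -0.44, against -0.0042 for all genes.

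Itih3, which encodes a heavy chain, had 883, 782 and 1112 CPM in HFCF livers, against 2038, 1846 and 2138 CPM in chow livers. It fell by 53.9% (-1.12 ± 0.30, edgeR adjusted p = 0.0223), with no overlap between the groups. Itih2, a heavy chain gene on another chromosome, had 898, 870 and 1306 CPM in HFCF livers, against 1714, 1617 and 1689 CPM in chow livers. All 3 HFCF values lay under the chow values, with replicate 3, the library that stood apart, nearest to them, and the change was -0.71 ± 0.21 (edgeR adjusted p = 0.0327). Itih1 had 636, 585 and 837 CPM in HFCF livers, against 1016, 928 and 973 CPM in chow livers. Replicate 3 was again the highest HFCF value, and the change was -0.50 ± 0.16 (edgeR adjusted p = 0.0415). Itih4, the heavy chain relative that does not join bikunin, had 1388, 1168 and 1518 CPM in HFCF livers, against 2921, 1536 and 2377 CPM in chow livers. The groups were apart by the small gap between HFCF replicate 3 and chow replicate 2, and Itih4 did not pass (-0.75 ± 0.37, edgeR adjusted p = 0.181).

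Ambp, the precursor of bikunin, had 1776, 1788 and 1916 CPM in HFCF livers, against 2090, 1611 and 2008 CPM in chow livers. The HFCF values lay within the chow range, with a change of -0.06 ± 0.19 and a 95% interval of -0.48 to 0.36 (edgeR adjusted p = 0.865). The difference between the change of Ambp and that of the heavy chains was not tested. The ratio of heavy chain counts to Ambp counts within a library does not depend on how libraries are scaled. The ratio of Itih3 to Ambp was 0.497, 0.437 and 0.580 in HFCF livers at 3 months, against 0.975, 1.15 and 1.06 in chow livers. The ratio of Itih2 to Ambp was 0.506, 0.486 and 0.682 in HFCF livers, against 0.820, 1.00 and 0.841 in chow livers. Both ratios were lower in every HFCF liver than in every chow liver. The Itih1 ratio was 0.358, 0.327 and 0.437 in HFCF livers, against 0.486, 0.576 and 0.485 in chow livers. The Itih4 ratio was 0.782, 0.653 and 0.793 in HFCF livers, against 1.40, 0.953 and 1.18 in chow livers. All 4 ratios were apart without overlap, as counts not corrected for length, and no test was run on them. They share the Ambp counts, and all 4 heavy chain genes were already apart in CPM, so the ratios are not separate results. The share of all genes apart in such a ratio was not computed. Itih3 per Itih1 count also stood apart: 1.39, 1.34 and 1.33 in HFCF livers and 2.01, 1.99 and 2.20 in chow livers. Itih4 per Itih3 count overlapped between the groups, at 1.57, 1.49 and 1.37 in HFCF livers and 1.43, 0.832 and 1.11 in chow livers. These ratios between heavy chains were not tested either.

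**Figure D2:**
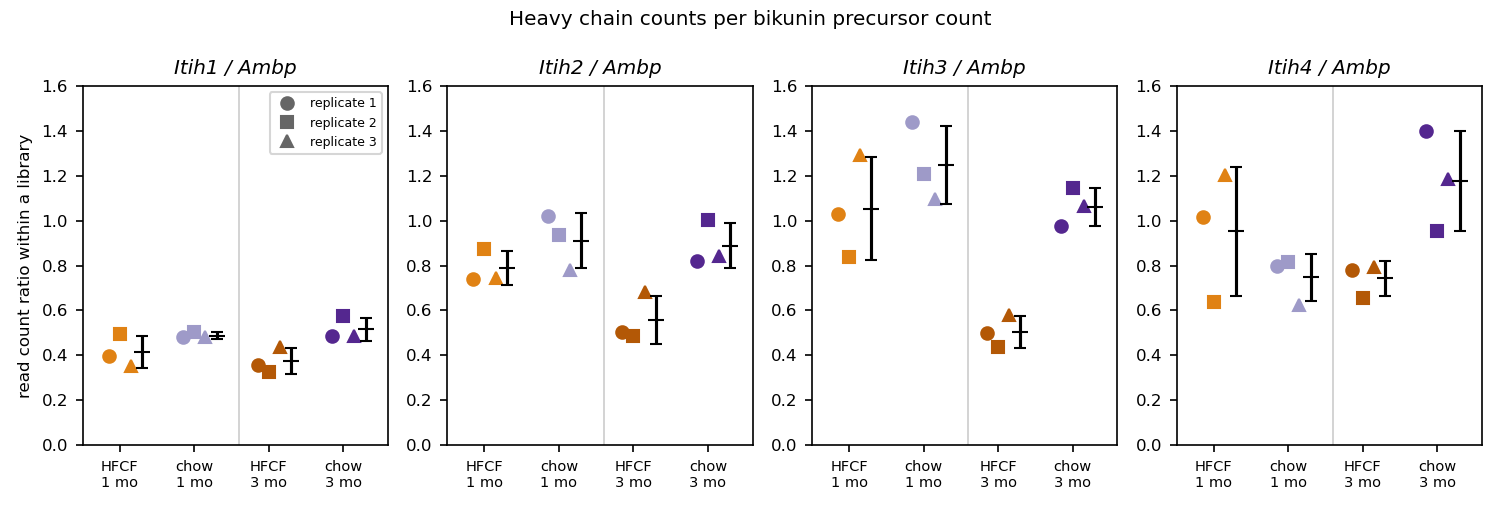
Read counts of each heavy chain gene divided by those of Ambp in the same library (linear axis from 0), HFCF left of chow at each month; symbols are replicates and black marks the mean ± SD of 3. At 3 months the Itih3 ratio averaged 0.505 ± 0.0719 in HFCF livers and 1.06 ± 0.0852 in chow livers, while at 1 month the groups overlapped for all 4 genes.

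Alb had 36314, 36058 and 44932 CPM in HFCF livers at 3 months, against 53227, 52395 and 53971 CPM in chow livers. All HFCF values lay under the chow values, and the change did not pass (-0.44 ± 0.21, 95% interval -0.90 to 0.011, edgeR adjusted p = 0.160). Albumin alone took 4.15%, 4.07% and 4.64% of counts in these HFCF libraries, against 5.49%, 5.33% and 5.24% in chow libraries. The other carriers lay close to their chow levels. Ttr (ENSMUSG00000061808), which shares 11 bases with the antisense gene Gm16090, had 3859, 3753 and 4296 CPM in HFCF livers, against 3667, 3775 and 4428 CPM in chow livers. Its change was 0.0048 ± 0.16 (95% interval -0.34 to 0.35, edgeR adjusted p = 0.988). Gc had 6269, 6221 and 6653 CPM in HFCF livers, against 6300, 5701 and 6729 CPM in chow livers. The ranges overlapped, with a change of 0.03 ± 0.15 (95% interval -0.28 to 0.35, edgeR adjusted p = 0.907). Cp had 1756, 1822 and 1631 CPM in HFCF livers, against 1777, 1670 and 1704 CPM in chow livers, a change of 0.02 ± 0.12 (95% interval -0.24 to 0.28, edgeR adjusted p = 0.945). Neither direction is shown for Ttr, Gc and Cp, whose intervals all span 0. Counts of Gc per Alb count were 0.173, 0.173 and 0.148 in HFCF livers, against 0.118, 0.109 and 0.125 in chow livers, and the groups did not overlap. Counts of Ttr per Alb count were 0.106, 0.104 and 0.0956 in HFCF livers, against 0.0689, 0.0720 and 0.0820 in chow livers, also without overlap. Both ratios divide by Alb, whose CPM was lower in every HFCF liver, and no test was run on them.

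**Figure D3:**
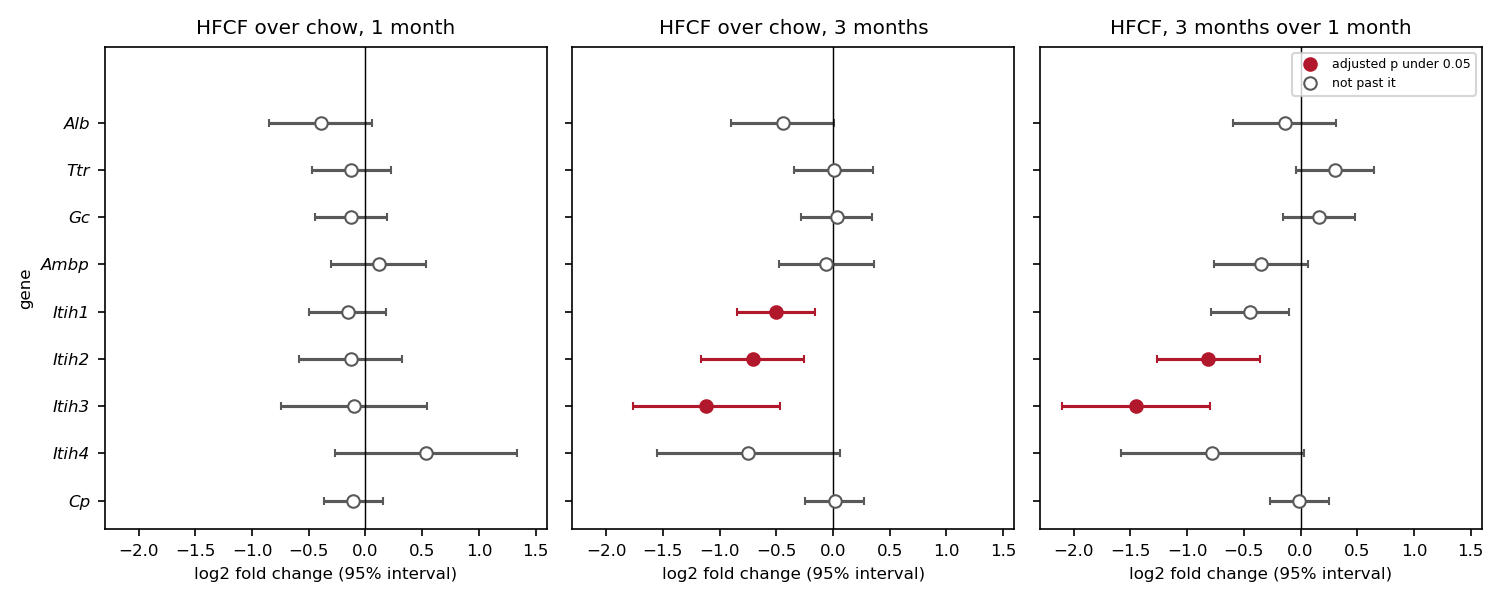
Log2 fold changes of the 9 genes with 95% intervals for HFCF over chow at 1 month, HFCF over chow at 3 months, and 3 months over 1 month within HFCF; filled red points passed an edgeR adjusted p of 0.05. The 3 red points at 3 months are Itih1, Itih2 and Itih3, and the 2 within HFCF are Itih2 and Itih3.

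Markers of cell types were read in the same livers, where 7.50% of all tested genes were called lower and 11.5% higher. Of genes with a mean of at least 500 CPM 21.3% were called lower. Sums take in every listed marker, also those that the filter on low counts removed. The summed CPM of 15 hepatocyte markers was 51833 to 66305 in HFCF livers at 3 months and 84012 to 87836 in chow livers, and 9 of the 15 were called lower and none higher. Lipid-associated and recruited macrophage markers summed to 106 to 470 CPM in HFCF livers and 44.7 to 59.7 CPM in chow livers, and 9 of 10 were called higher. Of 12 Kupffer cell markers, which summed to 683 to 969 CPM in HFCF livers and 396 to 572 CPM in chow livers, 6 were called higher. Of 11 stellate cell markers, with sums of 660 to 1274 CPM in HFCF livers and 468 to 643 CPM in chow livers, 4 were called higher. All 3 neutrophil markers tested were called higher, with sums of 4.35 to 8.12 CPM in HFCF livers and 2.17 to 3.88 CPM in chow livers. Of 6 cholangiocyte markers tested Krt23 alone was called, averaging 18.1 ± 3.06 CPM in HFCF livers and 2.56 ± 1.24 CPM in chow livers. The list summed to 28.3 to 30.1 CPM in HFCF livers and 10.6 to 13.9 CPM in chow livers. Krt23 had the highest mean of the list, so the sum says little of the other markers. Of 6 B cell markers Cd79b was called higher, and the list summed to 7.66 to 47.6 CPM in HFCF livers and 5.70 to 16.7 CPM in chow livers. None of 2 T and NK cell markers passed edgeR's test, the DESeq2 Wald test or limma-voom, and 0 had an unadjusted p under 0.05. None of 10 endothelial markers passed edgeR's test, the DESeq2 Wald test or limma-voom and 1 had an unadjusted p under 0.05, with sums of 524 to 544 CPM in HFCF livers and 498 to 534 CPM in chow livers. For up to 4 markers per list with the smallest p, calls were also read with each of the 6 libraries left out in turn. Those of the hepatocyte and macrophage lists, Timp1 and Krt23 kept the call. C1qb, C1qc, Cd5l, Cd68, Dcn, Pdgfrb, Cd79b, S100a8 and S100a9 lost it in 4 of 6 fits, Col3a1 in 3 and Csf3r in 5. The edgeR adjusted p then reached 0.149 for Dcn and 0.182 for Csf3r. With the groups compared alone Cd68 (edgeR adjusted p = 0.0746), Col3a1 (0.0558), Dcn (0.0515), Pdgfrb (0.0783) and Csf3r (0.0757) did not pass. Csf3r did not pass with limma-voom either (0.0602). HFCF replicate 3, which stood apart, had the highest Alb, Itih1, Itih2, Itih3 and Itih4 of its group. Its median for the macrophage list, as deviation from each gene's mean over 12 libraries, was 0.79, against 2.51 and 2.69 in HFCF replicates 1 and 2. In bulk liver, fewer cells of a type and less RNA per cell cannot be told apart, and the part of cell makeup in these changes was not tested. Ttr, Gc, Ambp and Cp did not pass in the same libraries, with 95% intervals that span 0 and so show neither direction.

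The calls at 3 months depended on 5 of the 6 libraries. Without chow replicate 1, 2 or 3, or HFCF replicate 1 or 2, none of the 9 passed, and the edgeR adjusted p of Itih3 was 0.0502, 0.0509, 0.0652, 0.0793 and 0.0974 in that order. Without HFCF replicate 3, or without both libraries that stood apart, Itih1, Itih2 and Itih3 passed, at -0.68, -0.92 and -1.27 in both cases. Under scaling by total counts, where all genes had a median change of 0.127, Itih1 did not pass and the other 2 did. In the authors' deposited table, whose log2 ratios run chow over HFCF, the 3-month values were 0.94 for Itih3 (the authors' adjusted p, read from a score, was 0.000862), 0.65 for Itih2 (0.00536), 0.48 for Itih1 (0.00833), 0.42 for Alb (0.0410) and 0.56 for Itih4 (0.160).

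**Figure D4:**
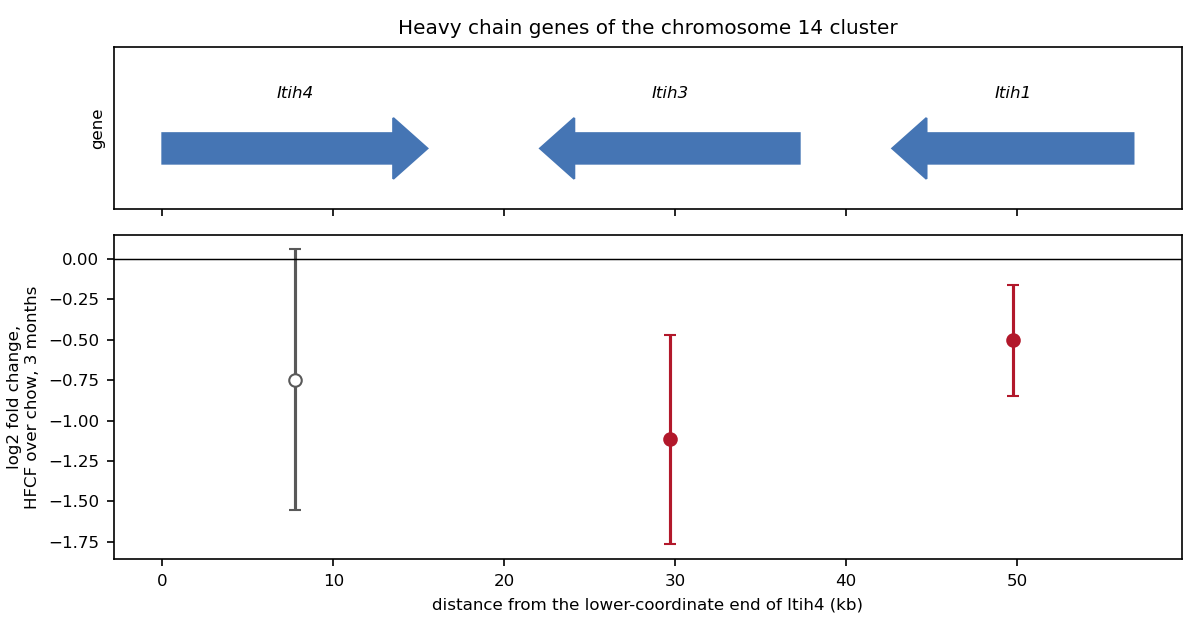
Upper panel, positions and direction of transcription of the 3 neighbouring heavy chain genes on chromosome 14, as distance in kb from the lower end of Itih4; lower panel, log2 fold change of HFCF over chow at 3 months with 95% intervals, red where past the threshold. Itih3 (-1.12) and Itih1 (-0.50), on the same strand, passed, and Itih4 (-0.75), on the other, did not.

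The genes that flank the cluster did not pass at 3 months: Mustn1, 4867 bases beyond Itih4, had a change of 0.33 ± 0.23 (edgeR adjusted p = 0.343), and Nek4, 8171 bases beyond Itih1, had -0.13 ± 0.11 (edgeR adjusted p = 0.428). Next to Itih2, Itih5, a heavy chain family member at a lower level, averaged 16.9 ± 4.87 CPM in HFCF livers and 36.3 ± 5.72 CPM in chow livers (-1.09 ± 0.32, edgeR adjusted p = 0.0389). Itih5 did not pass whichever of the 6 libraries was left out, with adjusted p up to 0.120. Kin, on the other side of Itih2 at 1784 bases, did not pass (-0.34 ± 0.14, edgeR adjusted p = 0.103). The tested neighbours of Alb, Gc, Ambp, Ttr and Cp did not pass either, and Afp, 14110 bases from Alb, had 0.27 ± 0.32 (edgeR adjusted p = 0.595).

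The comparison at 1 month asked the same after the shorter feeding. None of the 9 genes passed edgeR's test, none had an unadjusted p under 0.05, and none passed with the DESeq2 Wald test or limma-voom. Over all genes 2.04% were called. In none of the 9 were the groups apart without overlap, where 20.6% of all tested genes were, and the median change was -0.12. The livers of HFCF-fed mice at this month differed among themselves. Itih4 had 2639, 1041 and 3301 CPM in HFCF replicates 1, 2 and 3, against 2034, 1529 and 1261 CPM in chow replicates. The HFCF group held both the lowest and the highest Itih4 value of all 12 libraries, and the change was 0.53 ± 0.37 (95% interval -0.27 to 1.34, edgeR adjusted p = 0.518). Itih3 had 2676, 1367 and 3552 CPM in HFCF livers, against 3668, 2266 and 2211 CPM in chow livers. HFCF replicate 2 was the lowest of the 6 and chow replicate 1, a library that stood apart, the highest (-0.10 ± 0.30, edgeR adjusted p = 0.906). Itih4 per Itih3 count was 0.986, 0.761 and 0.929 in HFCF livers, against 0.555, 0.675 and 0.570 in chow livers. These ratios were apart without overlap, and no test was run on them.

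Alb had 38060, 56525 and 34480 CPM in HFCF livers at 1 month, against 59799, 51123 and 58704 CPM in chow livers. Replicates 1 and 3 lay under all chow values and replicate 2 lay among them, and the change did not pass (-0.39 ± 0.21, edgeR adjusted p = 0.388). Ambp had 2595, 1635 and 2746 CPM in HFCF livers, against 2549, 1874 and 2014 CPM in chow livers (0.12 ± 0.19, edgeR adjusted p = 0.827). Here HFCF replicates 1 and 3 were the high ones. Itih2 had 1923, 1432 and 2047 CPM in HFCF livers, against 2597, 1754 and 1566 CPM in chow livers (-0.13 ± 0.21, edgeR adjusted p = 0.818). Itih1 had 1030, 808 and 970 CPM in HFCF livers, against 1222, 945 and 967 CPM in chow livers (-0.16 ± 0.16, edgeR adjusted p = 0.679). For these heavy chains too, HFCF replicate 2 was the lowest library and chow replicate 1 the highest. Ttr (-0.12 ± 0.16), Gc (-0.13 ± 0.15) and Cp (-0.11 ± 0.12) differed by less than their spread, with edgeR adjusted p of 0.763, 0.723 and 0.711 in that order.

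Positive acute phase genes, most of them for plasma proteins whose synthesis the liver raises in inflammation, varied over the same libraries. The median of 21 such genes, as deviation from each gene's own mean on the log2 scale, was 0.46, -0.38 and 0.55 in HFCF replicates 1, 2 and 3 at 1 month, against 0.02, 0.01 and -0.20 in chow. Replicates 1 and 3, with the high Itih4, Itih3 and Ambp and the low Alb, had the high acute phase medians. Chow replicate 1 at 1 month, with a median of 0.02, had the highest Itih3 (3668 CPM) and the highest Alb (59799 CPM) of all libraries. At 3 months the medians were -0.06, -0.20 and -0.23 in HFCF livers, against 0.25, -0.55 and -0.24 in chow livers, and chow replicate 1 had both the highest median and the highest Itih4 of these 6. None of the 21 passed edgeR's test at 1 month, where 6 had an unadjusted p under 0.05 and their median change was 0.40. The DESeq2 Wald test called 4 of them and limma-voom 0. Haptoglobin (Hp), an acute phase protein that binds free haemoglobin, had 4628, 2733 and 5297 CPM in HFCF livers at 1 month, against 4589, 2637 and 2904 CPM in chow livers. The part of an acute phase state in the spread of these genes was not tested.

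**Figure D5:**
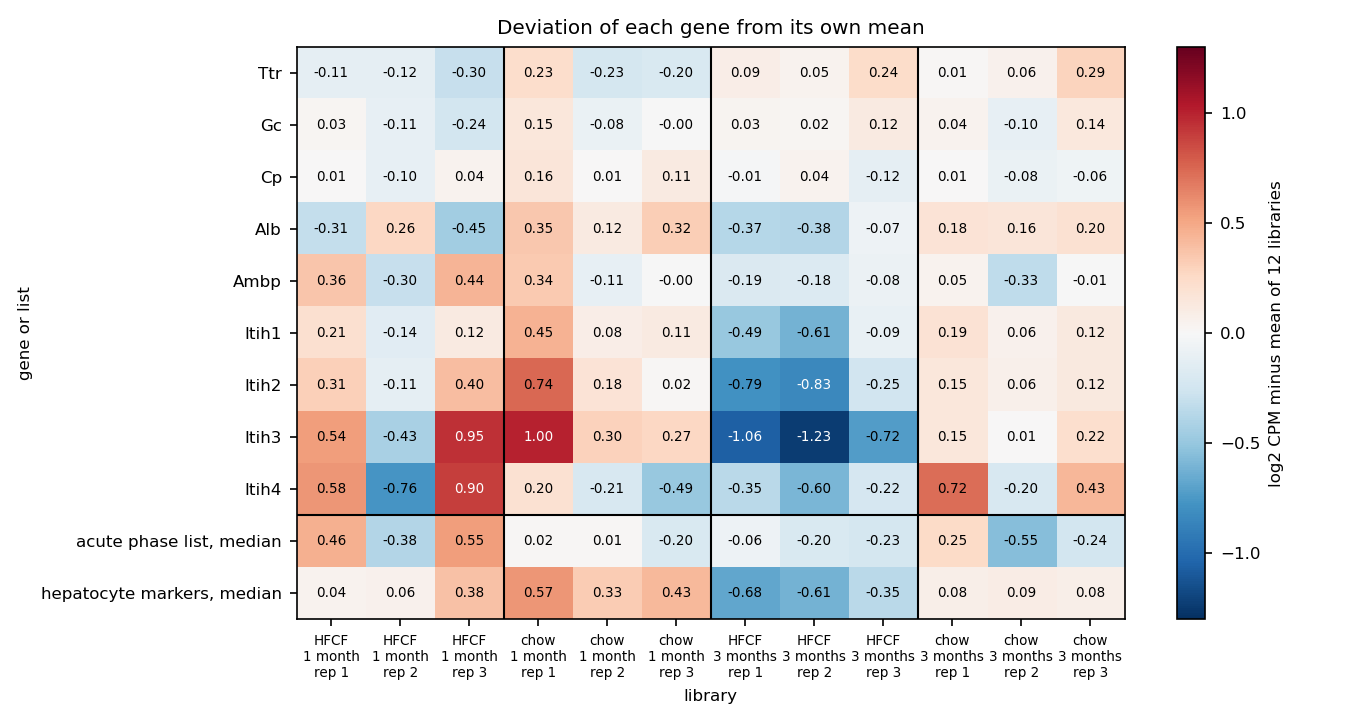
Log2 CPM of each gene minus its mean over 12 libraries, with the medians of the 21 acute phase genes and of 15 hepatocyte markers below; columns are libraries, HFCF left of chow at each month, red is above and blue below the gene's mean. Itih3 ranged between -1.23 in HFCF replicate 2 at 3 months and 1.00 in chow replicate 1 at 1 month, and in HFCF at 1 month replicate 2 had the opposite sign to replicates 1 and 3 for Itih4, Itih3, Ambp and Alb.

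Whether the diet changed these genes differently at the 2 times was tested as the effect at 3 months over the effect at 1 month. None of the 9 passed edgeR's test, where 0.0407% of all tested genes were called. Itih4 (-1.28 ± 0.52, 95% interval -2.42 to -0.14, edgeR adjusted p = 0.265) and Itih3 (-1.02 ± 0.42, 95% interval -1.93 to -0.11, edgeR adjusted p = 0.266) had an unadjusted p under 0.05. None passed with the DESeq2 Wald test or limma-voom. Itih2 (-0.58 ± 0.30, edgeR adjusted p = 0.378) passed without both libraries that stood apart, at -1.04 and an adjusted p of 0.0227. So the fall of the heavy chain transcripts at 3 months was not shown to differ from their change at 1 month. The value for Alb was -0.05 ± 0.30 (95% interval -0.69 to 0.59).

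Within HFCF-fed mice, livers at 3 months were set against livers at 1 month, which also differed in age. Itih2 and Itih3 fell, 2 of 9 genes lower and none higher, where 6.95% of all tested genes were called lower and 9.25% higher. Their groups did not overlap, as 14.9% of all tested genes were lower without overlap. The change was -1.45 ± 0.30 for Itih3 (edgeR adjusted p = 0.00897) and -0.81 ± 0.21 for Itih2 (edgeR adjusted p = 0.0213). Itih1 (-0.45 ± 0.16, edgeR adjusted p = 0.0699), Itih4 (-0.78 ± 0.37, 0.170) and Ambp (-0.35 ± 0.19, 0.235) did not pass. Ttr was higher in all 3 livers at 3 months than in all 3 at 1 month, which 17.2% of all tested genes showed, and did not pass (0.30 ± 0.16, edgeR adjusted p = 0.212). Without HFCF replicate 2 at 3 months neither Itih2 nor Itih3 passed, and Itih3 then had an adjusted p of 0.0517. Without HFCF replicate 1 or 3 at 1 month, or replicate 1 at 3 months, Itih3 alone passed. Without HFCF replicate 2 at 1 month, the library with the low acute phase median, Ambp, Itih2, Itih3 and Itih4 passed.

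Within chow-fed mice none of the 9 genes passed edgeR's test between 3 months and 1 month, none had an unadjusted p under 0.05, and 0.00679% of all tested genes were called. None passed with the DESeq2 Wald test or limma-voom. Itih3 was lower without overlap at 3 months (-0.44 ± 0.30, edgeR adjusted p = 0.759), as was Cp (-0.14 ± 0.12, edgeR adjusted p = 0.819), and 7.67% of all tested genes were lower without overlap. Itih4 had 0.50 ± 0.37 (edgeR adjusted p = 0.778). Itih4 per Itih3 count was 1.43, 0.832 and 1.11 in chow livers at 3 months, against 0.555, 0.675 and 0.570 in chow livers at 1 month. The groups did not overlap, and no test was run on this ratio.

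Among the 9, the profiles of Ttr and Gc over the 12 libraries were closest, with a root-mean-square difference of centred log2 CPM of 0.114. Gc and Cp followed at 0.129, and Itih1 and Itih2 at 0.173. Ttr and Itih3 were farthest apart at 0.768, and the neighbours Itih3 and Itih4 differed by 0.513, more than Itih3 and Itih2 on another chromosome at 0.298. Other genes were compared if they had a mean of at least 5 CPM and a symbol that was not a predicted-gene, Rik or clone name. Among these, Itih1 was closest to the apolipoprotein gene Apon (0.0738) and Lgr4 (0.0871), and Itih2 to Zbtb48 (0.137) and the chaperone gene Hspa8 (0.146). Itih3 was closest to fumarate hydratase Fh1 (0.176) and Tbc1d8 (0.260), and Itih4 to Ifitm2 (0.320) and Hp (0.324). Alb was closest to Pecr (0.0825) and Sardh (0.116), Ambp to Acyp1 (0.109) and Dnajc15 (0.136), and Ttr to Fbxo45 (0.0941) and Rbm15b (0.0955). Gc was closest to Cisd2 (0.0572) and Memo1 (0.0643), and Cp to Exoc3 (0.0590) and Abcf2 (0.0624). Low values for Gc and Cp come with their small spread, since each lies within 0.111 and 0.0796 of its own mean by the same measure. Likeness over 12 libraries that share 4 groups says nothing of shared function.

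Other plasma proteins made by the liver were read from a list of 22 genes, of which 6 fell and 1 rose at 3 months, with a median of -0.23. The shares over all tested genes were 7.50% lower and 11.5% higher, and 21.3% of genes of at least 500 CPM were lower. The falls were in Ahsg (-0.85 ± 0.18, edgeR adjusted p = 0.00656), which encodes the mineral-binding fetuin-A, the plasminogen gene Plg (-0.55 ± 0.13, 0.0124), Fetub (-0.49 ± 0.12, 0.0157), Hrg, Apoa1 and Rbp4. Serpina7, the thyroxine-binding globulin gene and so a carrier of the same hormone as Ttr, averaged 144 ± 77.1 CPM in HFCF livers and 7.89 ± 0.85 CPM in chow livers (4.19 ± 0.56, edgeR adjusted p = 0.00200). Of 12 genes for thyroid hormone, retinol and vitamin D handling, 1 rose, Serpina7, and 2 fell, against the same 11.5% of all genes higher and 7.50% lower. These were the amino acid and thyroid hormone transporter Slc16a10 (-0.97 ± 0.20, edgeR adjusted p = 0.00691) and Rbp4 (-0.54 ± 0.18, edgeR adjusted p = 0.0478), whose product travels bound to transthyretin. At 1 month Stra6l, a receptor for retinol-binding protein, averaged 99.8 ± 4.81 CPM in HFCF livers and 159 ± 20.5 CPM in chow livers and fell (-0.67 ± 0.12, edgeR adjusted p = 0.0128). Without 1 library, Plg lost the call (0.0746, HFCF replicate 2), as did Fetub (up to 0.0837, HFCF replicates 1 and 2 and chow replicate 1), Rbp4 (up to 0.181, HFCF replicates 1 and 2 and chow replicates 2 and 3) and Stra6l (up to 0.0664, replicate 1 of either group). Rbp4 also did not pass with scaling by total counts (0.0966) or with robust estimation off (0.0535).

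Of the 21 acute phase genes 3 rose and 3 fell at 3 months, with a median of -0.09. Over all genes 11.5% were called higher and 7.50% lower, and the list was not tested against these shares. The metalloreductase gene Steap4 (1.52 ± 0.22, edgeR adjusted p = 0.00155), the interleukin-1 receptor antagonist Il1rn (1.63 ± 0.29, 0.00361) and Saa4 (0.74 ± 0.18, 0.0158) rose, while the protease inhibitor Serpina3n fell (-1.20 ± 0.21, 0.00260), as did C3 and Lbp. Saa4 lost the call without HFCF replicate 1 or chow replicate 2 or 3, with adjusted p up to 0.0720. Saa1, Saa2, Saa3, Orm1, Hp, Hpx, Lcn2, Crp and Apcs did not pass edgeR's test at 3 months. Of 11 genes of interleukin-6 and cytokine signalling, 2 rose and 2 fell, again against 11.5% of all genes higher and 7.50% lower. The receptor subunit Il6ra averaged 25.2 ± 3.81 CPM in HFCF livers and 54.7 ± 3.14 CPM in chow livers (-1.12 ± 0.14, edgeR adjusted p = 0.000428), and the transcription factor Stat3 fell by 0.42 ± 0.10 on the log2 scale (edgeR adjusted p = 0.0122). The kinase gene Jak2 rose (0.50 ± 0.11, edgeR adjusted p = 0.00830), as did Tnf at low level, with 1.41 ± 0.63 CPM in HFCF livers and 0.173 ± 0.163 CPM in chow livers (edgeR adjusted p = 0.00688). Stat3 (up to 0.0553, HFCF replicate 2 and chow replicate 2, and 0.0596 with scaling by total counts) and Jak2 (0.0526, chow replicate 2) lost the call without 1 library.

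Transcription factors of the hepatocyte were read from 18 genes, of which 3 fell and none rose at 3 months (median -0.18), against 7.50% of all genes lower and 11.5% higher. Foxa3 averaged 37.8 ± 3.98 CPM in HFCF livers and 78.9 ± 13.8 CPM in chow livers (-1.06 ± 0.15, edgeR adjusted p = 0.000725). Hnf4a, a nuclear receptor of hepatocyte genes, fell (-0.55 ± 0.13, edgeR adjusted p = 0.00871), a call lost when HFCF replicate 2 was left out (0.0529), and Stat3 was the third. Of 26 secretory pathway genes, which carry plasma proteins through the endoplasmic reticulum, none passed at 3 months by edgeR (median -0.18), where 8 had an unadjusted p under 0.05, the DESeq2 Wald test called 2 and limma-voom 0. At 1 month the DESeq2 Wald test called 9 of the 26 and limma-voom 3. By edgeR 5 fell at that month (median -0.27), where 2.04% of all tested genes were called in either direction. Among those at 1 month were the lectin chaperone Calr, with 336 ± 72.4 CPM in HFCF livers and 615 ± 57.9 CPM in chow livers (-0.87 ± 0.17, edgeR adjusted p = 0.0214), and the signal peptidase subunit Spcs2 (-0.70 ± 0.14, edgeR adjusted p = 0.0225). Both lost the call without replicate 1 or 3 of either group, with adjusted p up to 0.0917 and 0.0809. Spcs2 also lost it without both libraries that stood apart (0.0620).

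Hyaluronan genes and partners of inter-alpha-inhibitor counted 13 tested, of which 2 rose and 2 fell at 3 months. Over all genes 11.5% were called higher and 7.50% lower, and the list was not tested against these shares. At 1 month none passed with edgeR, the DESeq2 Wald test or limma-voom, and 4 had an unadjusted edgeR p under 0.05. The hyaluronan receptor gene Hmmr, also a cell division gene, averaged 1.50 ± 0.25 CPM in HFCF livers and 0.0577 ± 0.0543 CPM in chow livers (edgeR adjusted p = 0.000428). Vcan, which encodes the hyaluronan-binding proteoglycan versican, averaged 1.62 ± 0.89 CPM in HFCF livers and 0.291 ± 0.146 CPM in chow livers (edgeR adjusted p = 0.0136). The hyaluronidase Hyal1 fell (-0.43 ± 0.11, edgeR adjusted p = 0.0158), and Itih5, given above, was the other. Vcan lost the call without HFCF replicate 2 or chow replicate 1 or 2 (up to 0.0657), and Hyal1 without HFCF replicate 1 or 2 or chow replicate 2 or 3 (up to 0.0752). With scaling by total counts the adjusted p was 0.0570 for Hyal1 and 0.0643 for Itih5.

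Of 15 copper and iron partners of ceruloplasmin, 2 rose and 2 fell at 3 months. Over all genes 11.5% were called higher and 7.50% lower, and the list was not tested against these shares. The copper chaperone Atox1 (0.52 ± 0.12, edgeR adjusted p = 0.00831) and Heph (0.76 ± 0.24, 0.0428), a ferroxidase related to ceruloplasmin, rose. The iron hormone gene Hamp (-1.41 ± 0.40, 0.0375) and the transferrin receptor gene Tfr2 (-0.43 ± 0.13, 0.0382) fell. Atox1 lost the call without chow replicate 2 (0.0507), Heph without any of 5 libraries, all but HFCF replicate 3 (up to 0.162), Hamp without HFCF replicate 1 or 2 or chow replicate 1 or 2 (up to 0.126) and Tfr2 without HFCF replicate 1 or 2 or chow replicate 1 or 3 (up to 0.159). Heph also did not pass with limma-voom (0.0539), and with the groups compared alone Heph (0.0520), Hamp (0.0940) and Tfr2 (0.0711) did not pass. Tfr2 had an adjusted p of 0.0683 with scaling by total counts. Of 7 genes for albumin recycling and uptake 1 rose, against 11.5% of all genes higher and 7.50% lower. It was the matrix protein gene Sparc, with 79.2 ± 33.0 CPM in HFCF livers and 30.4 ± 4.36 CPM in chow livers (1.38 ± 0.30, edgeR adjusted p = 0.0123). Sparc lost the call when chow replicate 2 was left out (0.0544). The lists share genes, among them: Rbp4 and Serpina7 are in both carrier lists, Stat3 is in 2 lists, and Apoa1, Apob and Hnf4a are also among the hepatocyte markers.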

How the data were processed

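Flash-frozen livers gave total RNA for stranded TruSeq libraries after Ribo-Zero Gold depletion, per the labels' protocols. The deposited table holds raw read counts per gene on mm10, per the submitters' processing notes and the file headers. Aligner, read counter and counting strand: not given in the sources used here. It also holds FPKM values made by the authors, used for levels between genes, and the authors' log2 ratios between groups. The deposited adjusted p column is a score, read here as -10 times a log10 by its range, since no source states its scale. Gene model lengths come from the deposited base totals. To starts in the table, which count from 0, 1 was added.

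R 4.3.3 and edgeR 4.0.16 were used on the counts. filterByExpr kept 14725 genes and removed 1310, and TMM factors were 0.921 to 1.14. All 12 libraries entered 1 model with a mean for each of 4 groups, fitted by quasi-likelihood with robust estimation. The SE is the size of the change over the square root of F, and 95% intervals use the same degrees of freedom as the test. Log2 CPM for profiles used a prior count of 2. The procedure was tested on simulated data. Alternatives used DESeq2 1.42.0, limma 3.58.1 and those in the closing section. Identifiers matched GENCODE M21 for 15306 genes. Figures used Python 3.11.15, pandas 2.3.3, numpy 2.4.6 and matplotlib 3.10.9.

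The members and lists were chosen with earlier results of these data known. Named were all 9 genes, per list up to 4 genes with the smallest p at 3 months and up to 2 at 1 month among those past the threshold, the 2 nearest profiles and the nearest tested genes. Hrg, Apoa1, C3 and Lbp, and Rbp4 in the first list, fall outside this rule and were named after their values were seen. Within groups the chi-square of counts per gene was 11.4 to 56.6, so no pair of libraries was a duplicate.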

Additional observations from a re-analysis of the deposited data

How the results depend on the processing

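At 3 months Itih1, Itih2, Itih3, Itih4 and Alb had a negative change of HFCF over chow in all 16 alternatives, with ranges of -0.68 to -0.38, -0.92 to -0.59, -1.27 to -0.99, -0.98 to -0.53 and -0.56 to -0.32 in that order. Ambp ranged between -0.18 and 0.07, Ttr between -0.06 and 0.13, Gc between -0.04 and 0.16 and Cp between -0.02 and 0.15. The count of 3 genes past the threshold became 4 with the DESeq2 Wald test, which added Alb (adjusted p = 0.0407), 2 with total counts alone, and 3 with the groups compared alone, where Itih4 passed and Itih1 did not (0.0531). Leaving out each library in turn gave 0 to 3 genes at 3 months and 0 to 4 for 3 months over 1 month within HFCF. That last count, 2 in the fit reported, was 3 with total counts alone (Ttr added), with the DESeq2 Wald test and without both libraries that stood apart (Itih1 added in each). For the difference of the effects the count of 0 became 1 without both libraries that stood apart. No alternative gave a call at 1 month or for chow over time.

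Over all genes, the 301 calls at 1 month were 641 with the DESeq2 Wald test, 147 with the groups compared alone and 149 without both libraries that stood apart, and 65 to 289 without 1 library. The 2802 calls at 3 months were 1255 to 3631 without 1 library, and the 2385 for HFCF over time were 3907 with total counts alone, 1298 with the groups compared alone, 3808 without both libraries that stood apart and 732 to 3562 without 1 library. The 6 calls for the difference were 0 with total counts alone, 3 with limma-voom, 367 with the DESeq2 Wald test, 635 without both libraries that stood apart and 0 to 878 without 1 library. The 1 call for chow over time was 69 with the DESeq2 Wald test, 17 with the groups compared alone, 2 with DESeq2 size factors, with total counts alone, with no filter and without both libraries that stood apart, and 1 to 6 without 1 library.

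Replicate numbers gave no clear sign of pairing: correlations of deviations between libraries with the same number were -0.13 to 0.15. No comparison had all 3 over 0.1, and HFCF and chow at 3 months gave 0.15, -0.07 and 0.15. So few values cannot settle whether libraries were paired. With a replicate block 3 of the 9 genes passed at 3 months, 2 within HFCF over time and 0 in the other comparisons, and all-gene calls were 211 at 1 month, 2623 at 3 months and 48 for the difference. Under the block Itih5 (0.0801), Hamp (0.0729), Heph (0.0543) and the stellate cell marker Pdgfrb (0.0554) did not pass at 3 months. The cause of these shifts was not tested. With 3 libraries per group, a 95% interval that spans 0 leaves the direction of a change undetermined.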
